A study of Homo sapiens with 6 samples.

Results

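The genes described here are those whose transcript level moved the same way, relative to PC9, in both sublines derived from it. A gene belonged to them when all 4 libraries of the sublines PC9-BrM4 and PC9-AMG lay on the same side of both PC9 libraries, with at least 1 TPM (a transcript level corrected for length and scaled to a fixed total per library) in 2 or more of the 6 libraries. Of 26485 genes in the tables, 14195 met that minimum and were tested, and 5989 of these were separated in this sense. They divide into 2985 genes that were higher in both sublines, 21.0% of those tested, and 3004 that were lower in both, 21.2%. The choice rests on the measured levels themselves, so the separation, its direction and its size describe the members and are not tests of them.

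The libraries hold polyadenylated RNA of 3 human lung cancer lines, with 2 libraries each. PC9 is a lung adenocarcinoma line with an activating EGFR mutation. Earlier work describes PC9-BrM4 as a brain-tropic derivative of PC9, a history absent from the labels, and the meaning of AMG is not given there either. All 3 were grown in conventional culture with no other treatment named, so PC9 is the common reference of both sublines, and the contrasts of each subline with PC9 share its 2 libraries. The tables of PC9-AMG carry EMG in their names and were assigned by the sample records. Whether replicates came from separate cultures is not stated in the labels, and p-values therefore measure the spread between these libraries, which may be technical alone. Each group is a single line, so a change shared by both sublines is shared by 2 derivatives of 1 parent.

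A subline is made by passing cells of a parental line through a bottleneck, such as growth in an animal or under selection, and expanding the survivors. Its transcriptome can differ from the parent through heritable changes in chromatin or gene copy number, through the emergence of a minor clone, and through drift in culture. Among the programmes that commonly differ between such derivatives are stress responses, adhesion molecules, cytokine signalling and the cell cycle.

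The aligned sequence behind the libraries ranged from 2.66 to 4.39 gigabases, an estimate from the deposited coverage, and 13455 to 13764 genes per library reached 1 TPM. Replicates differed by a median of 0.0622 log2 units in PC9, 0.0868 in PC9-BrM4 and 0.0810 in PC9-AMG, taken without sign over genes. Epithelial markers summed to 9415 to 14460.0 TPM per library, while the lung adenocarcinoma lineage genes NKX2-1, NAPSA and SFTPB were all under 1 TPM in every library. Markers of other cell types were low. Their sums per library were 14.9 to 27.3 TPM for 3 astrocyte genes, of which 2 stayed under 1 TPM in all libraries, and 41.6 to 49.8 TPM for 5 genes of microglia and leukocytes, of which 3 did. The 3 oligodendrocyte genes summed to 28.3 to 33.5 TPM and the 7 fibroblast and endothelial genes to 5.99 to 20.5 TPM.

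Most shared changes were small. The log2 difference of log2(TPM + 1) was computed for each subline, and the smaller of the 2 differences had a median of 0.22 among the genes that were higher and 0.23 in size among those that were lower. In 749 of the higher and 696 of the lower members the smaller change was under 1.1-fold. At least 2-fold in each subline were 74 higher genes, 0.521% of those tested, and 59 lower genes, 0.416%. At least 4-fold in each were 7 and 4 genes.

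Across all tested genes, limma with Benjamini-Hochberg adjustment called 3573 genes higher (25.2%) and 3548 lower (25.0%) in the mean of both sublines than in PC9. It called 1636 genes higher (11.5%) and 1552 lower (10.9%) in each subline separately. Together these were 50.2% of tested genes in the mean contrast. Of the 5989 members, 5206 were called in that contrast in their own direction and 3188 in each subline. These calls use the same libraries as the choice of members and add no independent support to it. A further 1915 genes were called in the mean contrast without being separated, and in 2846 genes the sublines lay on opposite sides of PC9 with no overlap. The count of genes called lower fell from 3548 to 2215 without PC9 replicate 1 and to 2330 without PC9 replicate 2, and that of genes called lower in each subline from 1552 to 881 and 948. With the 4 subline libraries fitted as 1 group, so that their differences from each other count as spread, limma called 484 genes higher and 370 lower. An exact one-sided permutation test of 4 against 2 libraries cannot give a p below 0.067.

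**Figure D1:**
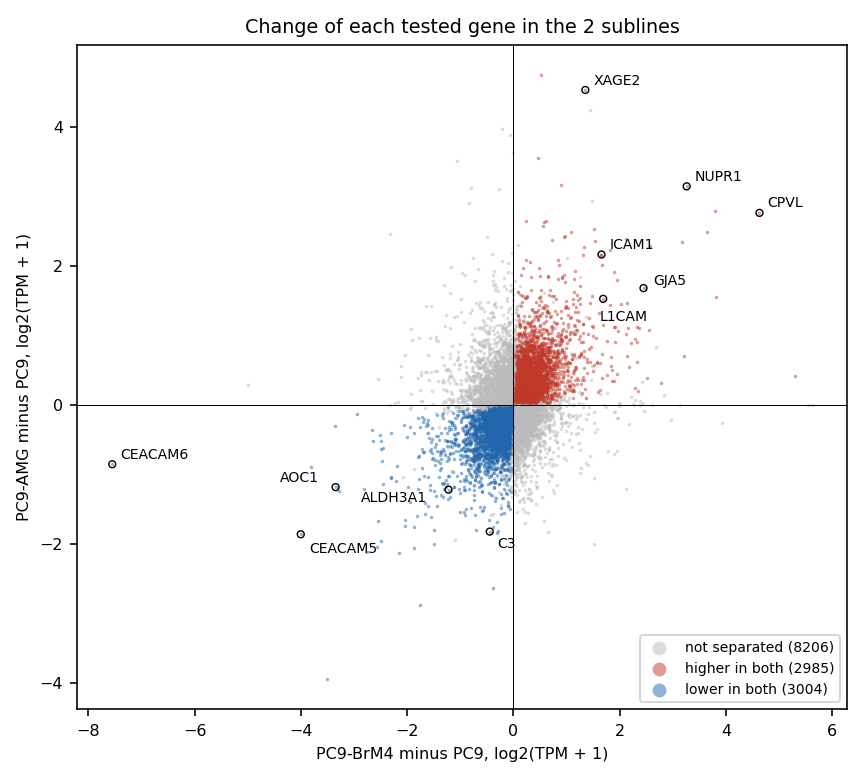
Each point is a tested gene, with its log2(TPM + 1) difference from PC9 in PC9-BrM4 on the x axis and in PC9-AMG on the y axis (means of 2 libraries). Red points are the 2985 genes higher in both sublines and blue points the 3004 lower in both; most lie close to 0, with NUPR1, CPVL and CEACAM5 among those far out, while CEACAM6 and XAGE2 are far out in 1 subline only.

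The edge of the rule runs through small gaps. Just inside on the higher side lay PSMD11, a proteasome subunit, with 149.5 and 148 TPM in PC9 against a lowest subline value of 149.5, and just inside on the lower side lay STRAP, with 435 and 417 TPM in PC9 against a highest subline value of 417. Just outside on the lower side was DBF4, with 44.9 and 43.8 TPM in PC9 and 43.8 in the highest subline library. UGT1A8 and UGT1A10 were just outside on the higher side because both PC9 and both PC9-AMG libraries listed them at 0.

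Membership also followed base composition. GC content was taken from the GENCODE 29 transcripts of the same symbol, which 94.0% of tested genes had. From the fifth of genes with the lowest to that with the highest GC content, the share that was higher in both sublines went from 7.98% to 38.0%, and the share that was lower in both went from 35.5% to 8.51%. The median log2 difference from PC9 went from -0.09 to 0.14 in PC9-BrM4 and from -0.16 to 0.22 in PC9-AMG. The replicates of a line showed the same kind of slope at a smaller size, with medians of replicate 2 minus replicate 1 going from -0.11 to 0.03 in PC9-AMG. The part of base composition in these results was not tested beyond removing the trend. With the trend of each library against GC content removed, an alternative chosen after seeing the data, 2837 genes were higher and 2709 lower in both. Of the original members that have a GC value, 2226 of 2850 higher and 2229 of 2829 lower genes remained separated, and 17 and 6 turned to the other side. For the gene groups below, counts after that removal are given where they differ from the main ones.

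**Figure D2:**
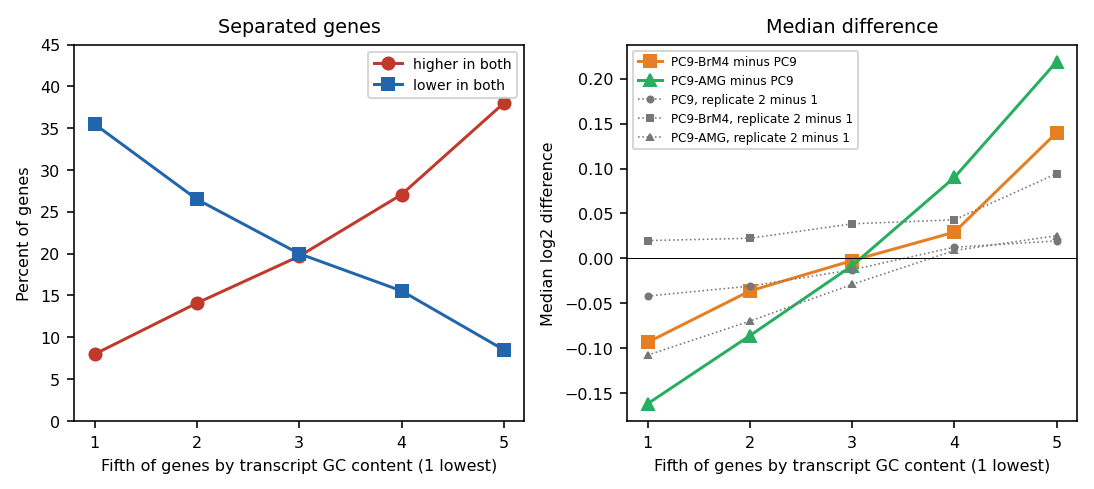
Left: percent of genes that were higher (red) or lower (blue) in both sublines, in 5 equal groups of genes by transcript GC content from lowest (1) to highest (5). Right: median log2 difference of each subline from PC9 and, dotted, of replicate 2 from replicate 1 within each line; the higher share climbs from 7.98% to 38.0% and the replicate differences slope less than those between lines.

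Among genes with at least 10 TPM in every library of the higher side that limma called in both sublines, NUPR1 had the largest shared rise. NUPR1 (chr16:28537341-28539174 in hg38, minus strand) encodes a stress-induced nuclear protein. It stood at 2.68 and 2.68 TPM in PC9 against 38.6 and 30.3 in PC9-BrM4 and 33.1 and 29.9 TPM in PC9-AMG. The 4 subline libraries lay close together, far above PC9. The mean of both sublines was 9.19-fold higher on the log2(TPM + 1) scale (log2 difference 3.20 ± 0.10 SE, limma adjusted p = 2.8e-06), and the sublines were not called different from each other (log2 difference -0.12, adjusted p = 0.41). CPVL (chr7:28995631-29146537, minus strand), a serine carboxypeptidase-like protein, was at 1.55 and 1.61 TPM in PC9 against 66.3 and 59.7 in PC9-BrM4 and 15 and 18.1 TPM in PC9-AMG. Its rise was shared in direction but was the larger in PC9-BrM4 (PC9-AMG minus PC9-BrM4 -1.87, limma adjusted p = 8.0e-06).

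ICAM1 (chr19:10270841-10286615, plus strand), the adhesion molecule that binds leukocyte integrins, was at 15.2 and 15.9 TPM in PC9 against 49.9 and 52.5 in PC9-BrM4 and 71.0 and 75.1 TPM in PC9-AMG. L1CAM (chrX:153861514-153886174, minus strand), a neural adhesion molecule studied in brain metastasis, was at 37.3 and 37.9 TPM in PC9 against 112 and 136 in PC9-BrM4 and 111 and 108 TPM in PC9-AMG. The L1CAM levels of the sublines lay close together, and both were 1.5 or more log2 units above PC9 (1.69 and 1.52). GJA5, a connexin of gap junctions, was at 4.02 and 3.70 TPM in PC9 against 25.9 and 25.1 in PC9-BrM4 and 14.2 and 14.9 TPM in PC9-AMG.

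The remaining genes of the 15 largest rises ranged in the mean contrast from a log2 difference of 1.24 for EPPK1, the cytolinker epiplakin, to 2.25 for IGFN1, a protein with immunoglobulin and fibronectin domains. They include the myosin heavy chain MYH15 (2.02), the chloride channel family member CLIC3 (1.52), the matrix protein ADAMTSL4 (1.45) and the membrane-bound ubiquitin ligase MARCH4 (1.38). SLC2A3, which encodes the glucose transporter GLUT3, was at 4.30 and 4.52 TPM in PC9 against 12.9 and 12 in PC9-BrM4 and 23.8 and 22.5 TPM in PC9-AMG. NOG, the secreted BMP antagonist noggin, was at 12.8 and 11.9 TPM in PC9 against 32.6 and 36.8 in PC9-BrM4 and 32.5 and 29 TPM in PC9-AMG. Neither gene overlapped between PC9 and the sublines, which the rule requires of every member. FAM133A (1.74) and LOC102723854 (1.87) complete the 15.

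Under the same limits on level and calls, and by the smaller of the 2 log2 differences, the largest shared fall was that of CEACAM5 (chr19:41708585-41730421, plus strand), the carcinoembryonic antigen, an adhesion glycoprotein of epithelial tumours. It was at 15.4 and 15.3 TPM in PC9 against 0 and 0.0426 in PC9-BrM4 and 3.76 and 3.24 TPM in PC9-AMG. PC9-BrM4 had next to none of the transcript and PC9-AMG kept a part of it (PC9-AMG minus PC9-BrM4 2.14, limma adjusted p = 4.8e-06). Its neighbour in the family, CEACAM6, was at 602 and 589.8 TPM in PC9 against 2.16 and 2.22 in PC9-BrM4 and 355 and 304 TPM in PC9-AMG. CEACAM6 was thus lower in both sublines by very unequal amounts (-7.55 and -0.86). MUC1, a surface mucin, fell from 30.8 and 27.3 TPM to between 14.7 and 17.9 TPM in the 4 subline libraries.

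ALDH3A1 (chr17:19737985-19748433, minus strand), an aldehyde dehydrogenase, was at 941 and 922 TPM in PC9 against 398 and 399 in PC9-BrM4 and 409 and 389 TPM in PC9-AMG. The 4 subline libraries of ALDH3A1 were nearly level, at 0.429 of PC9 in the mean contrast, and the sublines were not called different (limma adjusted p = 0.99). CES1, a carboxylesterase, was at 55.5 and 52.6 TPM in PC9 against 4.51 and 4.80 in PC9-BrM4 and 21.8 and 22.7 TPM in PC9-AMG. AOC1 (chr7:150852477-150861291, plus strand), the diamine oxidase that degrades histamine, was at 13.3 and 14 TPM in PC9 against 0.344 and 0.544 in PC9-BrM4 and 5.54 and 5.34 TPM in PC9-AMG. AKR1B15, an aldo-keto reductase, fell from 28.8 and 28.9 TPM to between 5.14 and 13.4. For CES1, AOC1 and AKR1B15 the fall was the deeper in PC9-BrM4. CES1 is listed at more than 1 place and AKR1B15 has close relatives, so their reads may be shared with similar genes.

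Receptors and signalling genes among the 15 largest falls included DIO2, the deiodinase that activates thyroid hormone, at 23.3 and 22.5 TPM in PC9 against 2.03 and 2.83 in PC9-BrM4 and 10.1 and 8.57 TPM in PC9-AMG. LPAR1, a receptor for lysophosphatidic acid, was at 20.1 and 19.7 TPM in PC9 and at 8.18 to 8.79 in all 4 subline libraries. ACKR3, an atypical receptor for the chemokine CXCL12, fell from 22.9 and 26.5 TPM to between 3.89 and 11.5. SOX4, a transcription factor of development, was at 26.9 and 26.2 TPM in PC9 and between 10.2 and 12.8 in the sublines. The log2 differences of the mean contrast for the others were -1.35 for the nectin PVRL3, -1.32 for the O-glycan branching enzyme GCNT1, -1.24 for the ephrin EFNB1, -1.01 for the deadenylase subunit PAN2 and -0.99 for TRIQK. PAN2 overlaps CNPY2 on its strand. MIR205 (-1.28) lies within MIR205HG on the same strand, so the value may be that of the host transcript, and the mature miRNA was not measured by these libraries.

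**Figure D3:**
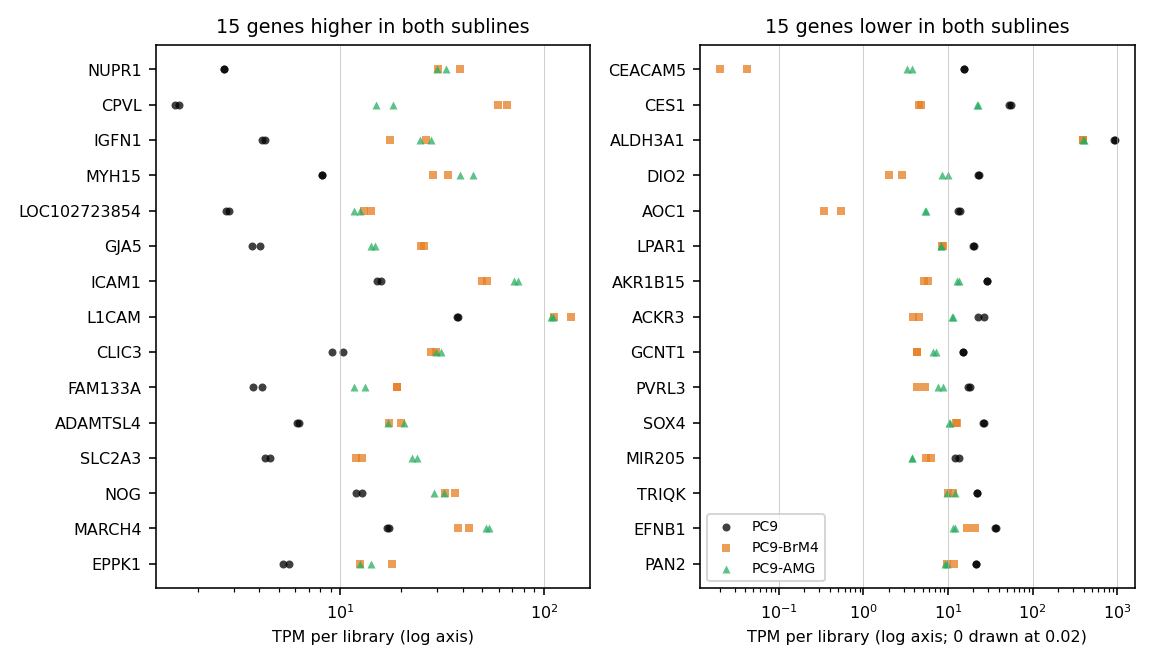
TPM in each library (log axis) for the 15 largest shared rises (left) and falls (right), ordered by the smaller of the 2 log2 differences. Points are single libraries of PC9 (black circles), PC9-BrM4 (orange squares) and PC9-AMG (green triangles). The gap between the black circles and the 4 subline points was required by the rule. CEACAM5, CES1, DIO2 and AOC1 show PC9-BrM4 well below PC9-AMG.

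Without the minimum of 10 TPM, the members at least 4-fold changed in each subline were few and are named here after their values were seen. Besides NUPR1, CPVL and IGFN1, those higher were OLFML3, EDNRB, SLCO2A1 and EIF3CL. OLFML3, a secreted olfactomedin-like protein, was at 0.390 and 0.279 TPM in PC9 against 14.6 and 16.9 in PC9-BrM4 and 6.76 and 6.15 TPM in PC9-AMG. EDNRB, an endothelin receptor, was at 0 and 0.0381 TPM in PC9 against 8.51 and 7.89 in PC9-BrM4 and 4.06 and 4.29 TPM in PC9-AMG, and SLCO2A1, a prostaglandin transporter, rose from 0.381 and 0.514 TPM to between 5.63 and 7.70. Those lower were AKR1C4, NLGN4X, PELI2 and NPR3. NLGN4X, a neuroligin, was at 3.47 and 3.47 TPM in PC9 against 0 and 0 in PC9-BrM4 and 0.0235 and 0.00678 TPM in PC9-AMG. PELI2, a ubiquitin ligase of Toll-like receptor signalling, fell from 6.75 and 5.22 TPM to at most 0.604. NPR3, the clearance receptor for natriuretic peptides, fell from 6.04 and 4.93 TPM to at most 0.592. OLFML3, EDNRB and SLCO2A1 reached the minimum of 1 TPM only through the sublines, and NLGN4X, PELI2 and NPR3 only through PC9. These genes therefore had to differ.

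For EIF3CL and AKR1C4 the replicates of a subline did not resemble each other. EIF3CL was at 2.68 and 1.04 TPM in PC9 against 152 and 8.48 in PC9-BrM4 and 4.54 and 63.6 TPM in PC9-AMG. AKR1C4 was at 79.5 and 84.6 TPM in PC9 against 0 and 52.8 in PC9-BrM4 and 0 and 28.1 TPM in PC9-AMG. Both were separated by the rule, yet neither was called in the mean contrast (limma adjusted p = 0.055 and 0.10). Each has near-identical relatives that could trade reads with it, EIF3C and the other AKR1C genes, so their values are uncertain. AKR1C4 is the only member 8-fold or more lower in each subline, and NUPR1 the only one as much higher. EIF3CL was called without PC9-BrM4 replicate 2 (adjusted p = 0.013) or PC9-AMG replicate 1 (0.025), with a pseudocount of 0.1 (0.044) and with a minimum of 5 TPM (0.035), and AKR1C4 without PC9-BrM4 replicate 2 (0.019) or PC9-AMG replicate 2 (0.044), each by limma.

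The epidermal growth factor receptor EGFR, which drives growth of PC9, was among the higher members. It was at 178 and 159.5 TPM in PC9 against 224 and 303 in PC9-BrM4 and 234 and 185 TPM in PC9-AMG. The gap between the highest PC9 and the lowest subline library was small beside the spread within a line, and the rise of the mean (0.46, limma adjusted p = 0.021) was not called without PC9 replicate 2 (adjusted p = 0.11) or PC9-AMG replicate 1 (0.055), with no minimum level (0.20) or with the sublines as 1 group (0.19). In PC9-AMG alone EGFR was not called either (0.30, limma adjusted p = 0.12). The receptor kinases MET and AXL, which can bypass EGFR, were not separated, since each was lower in PC9-BrM4 than in PC9 and higher in PC9-AMG (-0.41 and 0.19 for MET, -0.26 and 0.46 for AXL). AXL was called higher in the mean contrast without PC9-BrM4 replicate 1 (0.12, limma adjusted p = 0.031), and MET was called lower in that contrast on FPKM (-0.13, adjusted p = 0.044).

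Of 9 tested ligands of the EGFR family, 5 were higher (55.6%) and 3 lower (33.3%) in both sublines, against 21.0% and 21.2% of all tested genes. With the GC trend removed the ligands counted 5 and 2. EPGN, epigen, was at 6.92 and 7.06 TPM in PC9 and between 12.4 and 16.2 in the sublines. TGFA, transforming growth factor alpha, rose from 53.9 and 53.2 TPM to between 71.6 and 84.4. EREG, epiregulin, was called higher in the mean contrast (0.57, limma adjusted p = 0.018) but not without PC9 replicate 2 (0.096). The neuregulins NRG4 and NRG1, ligands of the ERBB3 and ERBB4 receptors, were lower: NRG4 went from 6.20 and 6.26 TPM to between 1.87 and 2.37, and NRG1 from 3.19 and 2.63 TPM to between 0.583 and 1.59. Of 20 genes driven by ERK signalling, 8 were higher (40%) and 2 lower (10%), or 7 and 2 with the GC trend removed. FOSL1, an AP-1 subunit, rose from 118 and 123 TPM to between 152 and 222, and the phosphatase DUSP7 by 0.62 in log2 units. DUSP6, the ERK-specific feedback phosphatase, fell from 17.4 and 17.5 TPM to between 10.4 and 13.5.

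The integrated stress response had the largest share of higher members among the lists of 20 or more tested genes. In this pathway, phosphorylated eIF2 favours translation of ATF4, which with its partner CHOP switches on genes for amino acid uptake, amino acid synthesis and charging of tRNA. Of 31 tested genes, 19 were higher (61.3%, against 21.0% of all tested genes) and 0 lower in both sublines, or 18 and 1 with the GC trend removed. The median of the mean contrast was 0.40, beside -0.0048 over all tested genes, with 0.14 in PC9-BrM4 and 0.54 in PC9-AMG. The list was chosen with earlier results of these data known, so its count describes it and is no independent evidence of its direction. In limma's mean contrast 25 were called higher and 4 lower, and 25 differed between the sublines.

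Besides NUPR1, the largest shared rises in this list were those of CBS and CTH, the enzymes that turn homocysteine into cysteine. CTH was at 31.8 and 30.2 TPM in PC9 against 80.1 and 76.0 in PC9-BrM4 and 71.7 and 57.3 TPM in PC9-AMG. CBS was at 40.5 and 43.1 TPM in PC9 and between 90.7 and 95.5 in all 4 subline libraries, but it has a near-identical copy in the assembly and its value is uncertain. ASNS, asparagine synthetase, was at 96.8 and 104 TPM in PC9 against 188 and 177 in PC9-BrM4 and 183 and 152 TPM in PC9-AMG. Smaller rises were seen in the asparaginyl-tRNA synthetase NARS (0.25), the cysteinyl-tRNA synthetase CARS (0.23), the cationic amino acid carrier SLC7A1 (0.31) and the heavy chain of amino acid exchangers SLC3A2 (0.34). SLC3A2, SLC7A1 and CARS were each higher in PC9-AMG than in PC9-BrM4, by 0.40, 0.32 and 0.33. SLC7A1 was not called in the mean contrast without PC9 replicate 2 (limma adjusted p = 0.059).

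ATF4 is known to bind a composite element with its C/EBP partners, written here as TGATGNAA. It was searched on both strands in the RefSeq promoters of GRCh38.p14, each from 250 bases before to 50 after the start of the gene. The element was in 5 of the 17 promoters matched among the 19 higher members of the list (29.4%). Of all 35097 promoters of the table, counted by every start and whether tested or not, 3.62% held it. The list was counted by gene, so these shares are not like for like. Its genes were chosen as belonging to the ATF4 pathway, so an excess over all promoters does not bear on the shared rise. The element was also in 2 of the 9 promoters matched among the 12 list members that were not separated (22.2%). Too few of these were matched for a comparison. These 5 stretches are shown because they hold the match, in capitals, in members called higher in the mean contrast. SLC7A1 and CARS were not called in PC9-BrM4 alone (0.15 and 0.06, limma adjusted p = 0.18 and 0.33). In SLC3A2 and CARS the element is read on the other strand. Only that of ASNS lies wholly before the RefSeq start, though inside the gene model of the deposited tables; in the others the match lies across or after that start. They are chr7:97872449-97872496 (ASNS, minus strand), chr18:57621804-57621833 (NARS, minus), chr13:29595663-29595692 (SLC7A1, minus), chr11:62881725-62881748 (SLC3A2, plus) and chr11:3057407-3057436 (CARS, minus). A match is a description of these letters, not a measured site.
ASNS: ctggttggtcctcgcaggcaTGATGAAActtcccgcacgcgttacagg
NARS: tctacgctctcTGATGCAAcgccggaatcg
SLC7A1: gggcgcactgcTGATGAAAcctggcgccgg
SLC3A2: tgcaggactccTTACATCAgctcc
CARS: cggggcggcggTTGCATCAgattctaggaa

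NF-kB is a transcription factor that answers inflammatory signals, and of 17 of its tested targets and cytokines 9 were higher (52.9%, against 21.0% of all tested genes) and 2 lower in both sublines (10 and 2 with the GC trend removed). The median log2 difference of the list was 0.09 in PC9-BrM4 and 0.89 in PC9-AMG. Besides ICAM1, TNFAIP3, the feedback inhibitor A20, was at 13.6 and 13.4 TPM in PC9 against 32.0 and 38.3 in PC9-BrM4 and 30.1 and 22.4 TPM in PC9-AMG. IL32, a cytokine, was at 3.62 and 1.80 TPM in PC9 against 15.2 and 14.1 in PC9-BrM4 and 6.45 and 6.17 TPM in PC9-AMG. Members also moved the other way: TNFAIP2 fell from 150.0 and 159 TPM to 122 and 126 in PC9-BrM4 and 42.2 and 41.8 TPM in PC9-AMG, and IL1B, which encodes interleukin 1 beta, fell from about 2 TPM (2.06 and 1.99) to below 1.

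MHC class I molecules display peptides to cytotoxic T cells, and of 22 tested genes of that pathway 9 were higher (40.9%) and 2 lower, or 9 and 3 with the GC trend removed, with medians of 0.18 in PC9-BrM4 and 0.20 in PC9-AMG. HLA-B was at 60.6 and 57.7 TPM in PC9 against 157 and 158 in PC9-BrM4 and 121 and 120.3 TPM in PC9-AMG. HLA-C, at 248 and 237 TPM in PC9, was between 437 and 475 in the sublines, and HLA-F rose from 6.43 and 6.15 TPM to between 12.8 and 15.9. The peptidase ERAP2 was lower, at 40.1 and 38.8 TPM in PC9 and 27.4 to 33.3 in the sublines. The class I genes are alike in sequence and occur on several alternate contigs, over which their values were summed here, so the split of reads among them is uncertain. Of 32 tested interferon-stimulated genes 11 were higher (34.4%) and 3 lower (13 and 3 with the GC trend removed), with medians of 0.02 in PC9-BrM4 and 0.19 in PC9-AMG. IFI6 rose from 6.31 and 4.61 TPM to between 10.4 and 15.5, and the antiviral GTPase MX1 from 2.40 and 2.46 TPM to between 3.90 and 6.63, while the DNA sensor IFI16 fell from 26.1 and 26.2 TPM to between 10.5 and 18.6. Of 16 tested complement and acute phase genes 4 were higher (25%) and 7 lower (43.8%), against 21.0% and 21.2% of all tested genes. With the GC trend removed these counts were 3 and 7. The central component C3 fell from 32.5 and 32.5 TPM to 21.9 and 25.4 in PC9-BrM4 and 8.51 and 8.37 TPM in PC9-AMG.

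YAP and its partner TAZ are coactivators that act through the TEAD factors and respond to cell shape and density. Of 26 tested genes of that pathway 13 were higher (50%) and 2 lower (7.69%) in both sublines, the same counts as with the GC trend removed. The shares of all tested genes were 21.0% and 21.2%. NUAK2, a kinase and YAP target, was at 2.64 and 2.94 TPM in PC9 against 6.01 and 6.63 in PC9-BrM4 and 18.8 and 19.6 TPM in PC9-AMG. CTGF, a secreted matricellular protein and the usual reporter of the pathway, was at 14.7 and 14 TPM in PC9 against 22.1 and 21.9 in PC9-BrM4 and 96.5 and 92.3 TPM in PC9-AMG. Both rose in each subline, and more in PC9-AMG (1.47 and 2.05 between the sublines). The TEAD factors moved apart: TEAD4 rose from 54.2 and 53.9 TPM to between 82.7 and 104, and TEAD2 fell from 41.5 and 40.9 TPM to 12.6 and 12.5 in PC9-BrM4 and 32.4 and 33.7 TPM in PC9-AMG. The labels give no culture density at harvest.

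Cancer-testis genes are normally expressed in germ cells and are switched on in many tumours. Of 12 tested, 8 were higher (66.7%) and 0 lower in both sublines, against 21.0% and 21.2% of all tested genes. The counts were the same with the GC trend removed. XAGE2 was at 0.766 and 0 TPM in PC9 against 2.29 and 2.50 in PC9-BrM4 and 28.5 and 30.8 TPM in PC9-AMG. It reached the minimum of 1 TPM only through the sublines, so it could not have been lower in both. MAGEC2 was at 0.977 and 1.08 TPM in PC9 against 2.51 and 2.17 in PC9-BrM4 and 9.24 and 9.70 TPM in PC9-AMG, and MAGEA12 rose from 49.1 and 53.8 TPM to between 66.7 and 71.2. The families hold near-identical copies, so counts between members are uncertain.

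Of 35 tested mitotic genes 22 were lower (62.9%, against 21.2% of all tested genes) and 3 higher in both sublines, or 17 and 4 with the GC trend removed. The falls were modest, with a median of the mean contrast of -0.23 over the list. TOP2A, the topoisomerase that untangles chromosomes, was at 213 and 214 TPM in PC9 against 128 and 130.2 in PC9-BrM4 and 149 and 138 TPM in PC9-AMG. CDK1, the kinase that drives entry into mitosis, was at 383 and 386 TPM in PC9 and between 273 and 297 in the sublines. TTK, a kinase of the spindle checkpoint, fell from 78.0 and 72.1 TPM to between 56.2 and 58.5. CDC20, the activator of the anaphase-promoting complex, went the other way, from 274 and 275 TPM to 326 and 332 in PC9-BrM4 and 399.8 and 419 TPM in PC9-AMG, and the polo-like kinase PLK1 rose by 0.27. Of 37 tested DNA replication genes 16 were lower (43.2%) and 4 higher (10.8%), or 13 and 2 with the GC trend removed. PRIM1, a primase subunit, fell from 64.0 and 63.4 TPM to between 40.3 and 49.6. UHRF1, a factor of maintenance methylation, and GINS1, of the replicative helicase, fell by 0.35 and 0.50. The replication list as a whole had a median of 0.01 in PC9-BrM4 and -0.34 in PC9-AMG, and 28 of its 37 genes differed between the sublines.

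Many mitotic promoters hold CCAAT boxes, which bind NF-Y. CCAAT, read on both strands in the same promoter windows, was in 15 of the 19 promoters matched among the 22 lower mitotic genes (78.9%). It was in 5 of the 8 matched among the 10 that were not separated and in all 3 of those that were higher. Of all promoters of the table, counted by every start rather than 1 per gene and tested or not, 34.6% held it. The box therefore was present on either side of the rule, and draws no line between the members. The 4 stretches that follow show the boxes, in capitals (ATTGG is CCAAT on the other strand), of 4 lower members of the list, with 4 boxes in TOP2A, 2 in ECT2 and 1 each in CDK1 and AURKB. They are chr17:40417925-40418146 (TOP2A, minus strand), chr10:60778161-60778205 (CDK1, plus), chr3:172750609-172750692 (ECT2, plus) and chr17:8210354-8210398 (AURKB, minus). ECT2, an exchange factor of cytokinesis, and AURKB, the kinase of the chromosomal passenger complex, fell by 0.39 and 0.48.
TOP2A: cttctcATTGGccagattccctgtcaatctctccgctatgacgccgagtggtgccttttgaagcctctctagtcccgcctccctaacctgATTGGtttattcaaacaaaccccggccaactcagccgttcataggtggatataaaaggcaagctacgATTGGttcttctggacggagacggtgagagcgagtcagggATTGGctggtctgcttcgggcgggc
CDK1: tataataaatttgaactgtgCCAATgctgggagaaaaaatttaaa
ECT2: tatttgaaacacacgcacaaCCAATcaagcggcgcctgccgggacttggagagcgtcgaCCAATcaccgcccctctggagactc
AURKB: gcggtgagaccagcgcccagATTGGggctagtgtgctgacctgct

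Ribosomal protein genes differed by compartment. Of 84 tested cytosolic ones 37 were lower (44.0%) and 3 higher (3.57%) in both sublines, against 21.2% and 21.0% of all tested genes. The counts with the GC trend removed were 29 and 1. The sizes were small, with a median of the mean contrast of -0.12. RPL23 was at 1718 and 1632 TPM in PC9 and between 1142 and 1270.3 in the sublines, and RPL37 fell from 2144 and 2226 TPM to between 1458 and 1839. RPL21 (-0.50) is listed at several places and is uncertain. Of 77 tested genes of the mitochondrial ribosome 31 were higher (40.3%) and 13 lower (16.9%), or 28 and 8 with the GC trend removed. The median log2 difference of these 77 was 0.15 in PC9-BrM4 and 0.01 in PC9-AMG, and 47 differed between the sublines. MRPL12 rose from 185 and 174 TPM to between 254 and 298, MRPL38 from 92.0 and 91.9 TPM to between 120.2 and 154, and MRPS6 from 104 and 101 TPM to between 131 and 139. MRPL42 fell from 44.8 and 44.9 TPM to between 33.5 and 36.5. MRPS6 lies on chromosome 21 and overlaps SLC5A3.

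NRF2 is the transcription factor of the oxidative and electrophile response, and PC9 expressed several of its targets at high levels. Of 35 tested targets 15 were lower (42.9%) and 5 higher (14.3%) in both sublines, against 21.2% and 21.0% of all tested genes. The counts with the GC trend removed were 15 and 3. AKR1B10, an aldo-keto reductase, was at 516 and 478 TPM in PC9 against 110.1 and 106 in PC9-BrM4 and 261 and 277 TPM in PC9-AMG. AKR1C1 was at 1571 and 1481 TPM in PC9 against 879 and 841 in PC9-BrM4 and 708 and 695 TPM in PC9-AMG, and AKR1C2 fell from 673 and 668 TPM to between 309 and 368. The AKR1C genes are close copies of each other, so reads may be split between them in either direction. CBR1, a carbonyl reductase on chromosome 21, rose from 112 and 111 TPM to between 145 and 153. Of 27 tested genes of aldehyde, kynurenine and amine metabolism 10 were lower (37.0%) and 4 higher (14.8%), or 10 and 3 with the GC trend removed. The lower ones include ALDH3A1 and AOC1, described above. ALDH1A1, a retinaldehyde dehydrogenase, fell from 3.82 and 2.87 TPM to between 0.754 and 1.12.

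Of 36 tested genes of TGF-beta and BMP signalling 13 were lower (36.1%, against 21.2% of all tested genes) and 5 higher (12 and 6 with the GC trend removed). BMP7, a BMP ligand, was at 0.0951 and 0.0776 TPM in PC9 against 2.55 and 3.09 in PC9-BrM4 and 1.99 and 1.87 TPM in PC9-AMG. ID1, a direct target of BMP signalling, was at 69.5 and 69.3 TPM in PC9 against 19.7 and 22.4 in PC9-BrM4 and 41.6 and 44.8 TPM in PC9-AMG. The receptor BMPR1B fell from 1.44 and 1.51 TPM to between 0.397 and 0.523, and the antagonist noggin, above, was higher. Of 36 tested Wnt genes 11 were lower (30.6%) and 5 higher (10 and 5 with the GC trend removed), and the non-canonical ligand WNT5A fell from 67.2 and 63.4 TPM to between 35.8 and 45.6. Of 18 tested Notch genes 5 were higher and 5 lower (27.8% each), or 4 and 5 with the GC trend removed. The fringe enzymes, which add sugars to Notch, moved in opposite directions: LFNG fell from 21.8 and 22.3 TPM to 11.6 and 11.1 in PC9-BrM4 and 6.41 and 8.02 TPM in PC9-AMG, and RFNG rose from 24.2 and 24.2 TPM to between 38.2 and 40.3. NOTCH1 rose from 10.7 and 10.3 TPM to between 12.3 and 20.6.

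HOX genes keep the positional identity of a cell. Of 14 tested 9 were lower (64.3%) and 3 higher (21.4%) in both sublines, against 21.2% and 21.0% of all tested genes. The counts with the GC trend removed were 9 and 2. HOXB7 was at 44.0 and 46.3 TPM in PC9 against 31.8 and 30.0 in PC9-BrM4 and 22.1 and 22.2 TPM in PC9-AMG. HOXC6 and HOXC8 were low throughout, at 4.75 and 4.49 TPM and at 4.05 and 3.98 TPM in PC9, and fell to at most 2.33 and at most 1.95 in the sublines. HOXC6 overlaps HOXC4 and HOXC5 on its strand.

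Epithelial and mesenchymal markers moved in both directions. Of 26 tested epithelial markers 7 were higher (26.9%) and 5 lower (19.2%). Of 19 mesenchymal markers 4 were higher (21.05%) and 6 lower (31.6%), or 3 and 6 with the GC trend removed. The shares of all tested genes were 21.0% and 21.2%. CLDN3, a claudin of tight junctions, was at 9.23 and 7.98 TPM in PC9 against 17.4 and 23.1 in PC9-BrM4 and 32.5 and 32.9 TPM in PC9-AMG. CDH1, which encodes E-cadherin, rose slightly (0.23, limma adjusted p = 0.0064), from 80.6 and 78.9 TPM to between 87.0 and 98.8, and was not called without PC9 replicate 2 (adjusted p = 0.054). VIM, which encodes vimentin, was at 33.9 and 34.0 TPM in PC9 against 27.3 and 26.1 in PC9-BrM4 and 13.3 and 11.6 TPM in PC9-AMG. The transcription factor SNAI2 fell from 16.8 and 17.7 TPM to between 7.13 and 11.4, and the matrix protein TGFBI from 507 and 511 TPM to between 272 and 324. The matrix genes COL6A2 and SPARC rose, by 0.90 and 0.76. Of 34 tested proteases and inhibitors 11 were lower (32.4%) and 5 higher (14.7%), or 13 and 4 with the GC trend removed. The membrane-type metalloproteinase MMP14 fell from 17.1 and 16.6 TPM to between 8.75 and 9.83. MMP28 fell by 1.54 and ADAM8 rose by 0.93.

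**Figure D4:**
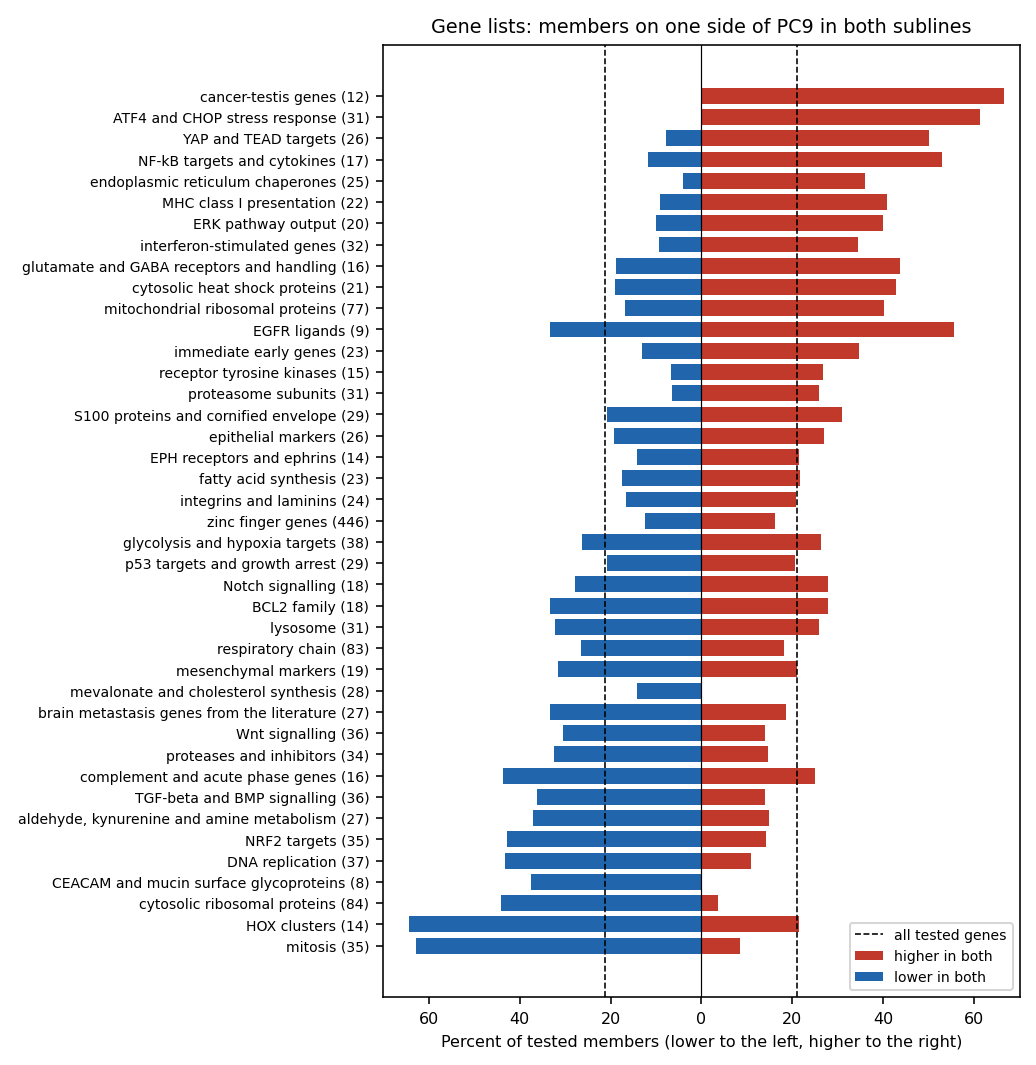
Percent of the tested members of each gene list that were higher in both sublines (red, to the right) or lower in both (blue, to the left), for lists of 8 or more tested genes, with the number tested in parentheses; dashed lines mark 21.0% and 21.2% of all tested genes. Cancer-testis and ATF4 genes head the list with 0 lower members, and mitotic, HOX and cytosolic ribosomal protein genes stand at its foot.

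For the sterol pathway the sublines went opposite ways. Of 28 tested genes of mevalonate and cholesterol synthesis 0 were higher and 4 lower in both sublines, with a median log2 difference of -0.38 in PC9-BrM4 and 0.38 in PC9-AMG, and 27 differed between the sublines. Fewer of its genes were members (14.3% lower and 0 higher) than of all tested genes (21.2% and 21.0%).

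Shared changes were unevenly spread over the genome. On chromosome 21, 55 of 120 tested genes were higher (45.8%) and 7 lower in both sublines. On chromosome 13, 18 of 240 were higher and 105 lower (43.8%), and on chromosome 14, 38 of 435 were higher and 169 lower (38.9%). On chromosome 12, 242 of 739 genes were lower (32.8%), but its median log2 difference was -0.23 in PC9-BrM4 and -0.03 in PC9-AMG. Chromosomes 18 and X came near it, with 30.65% and 30.31% lower. On chromosomes 21, 13, 14 and 12 the shares stayed away from those of all tested genes (21.0% and 21.2%) with the GC trend removed. They were 50.9% higher on chromosome 21 and 35.1%, 35.7% and 30.6% lower on chromosomes 13, 14 and 12. Chromosome 22 then had 29.4% lower, and chromosomes 18 and X had 22.0% and 24.4%. Chromosome 19, where 29.1% of 1010 genes were higher and 8.51% lower, had 20.7% and 14.7% after the removal. Its median log2 difference before the removal was 0.03 in PC9-BrM4 and 0.27 in PC9-AMG. Neighbouring genes are not independent of each other, and gene copy number was not measured in these files.

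Within chromosomes, tested genes were counted in windows of 10 Mb, of which 288 held at least 10. The window with the largest lower share lay on chromosome 7 from 80 to 90 Mb, where 13 of 16 genes were lower and 0 higher, with median log2 differences of -0.47 in PC9-BrM4 and -0.47 in PC9-AMG. On chromosome 14 from 80 to 90 Mb 10 of 13 genes were lower, and on chromosome 12 from 80 to 90 Mb 11 of 15. On chromosome 13 from 30 to 40 Mb 19 of 30 were lower and from 40 to 50 Mb 31 of 49, with 0 higher in either. The largest higher shares were 42 of 73 genes on chromosome 7 from 0 to 10 Mb, 39 of 68 on chromosome 17 from 80 to 90 Mb, 27 of 48 on chromosome 21 from 40 to 50 Mb and 39 of 70 on chromosome 5 from 170 to 180 Mb. With the GC trend removed, 12 of the 16 genes on chromosome 7 from 80 to 90 Mb were lower and 34 of 66 from 0 to 10 Mb higher.

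**Figure D5:**
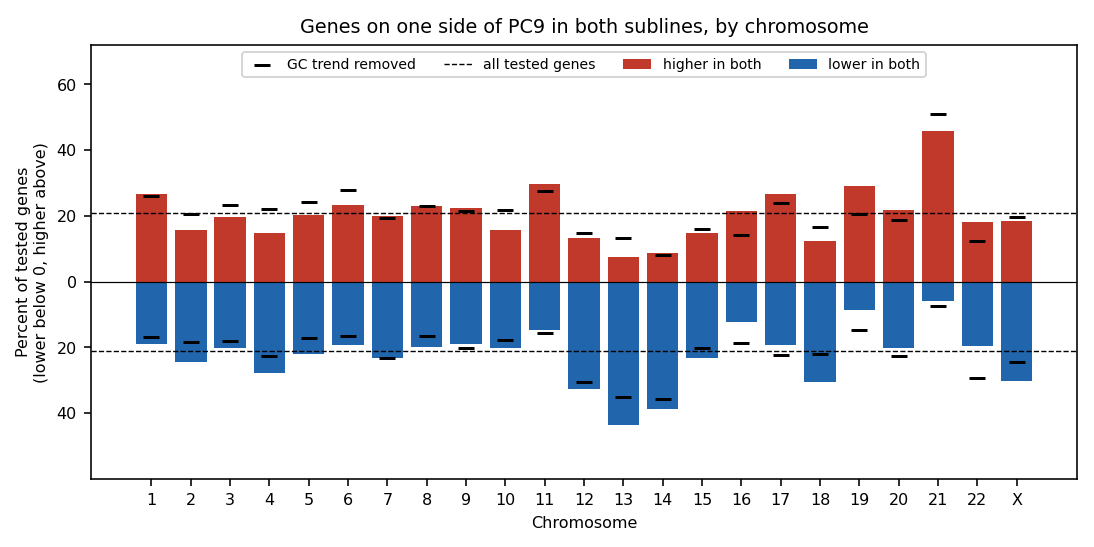
Percent of tested genes per chromosome that were higher in both sublines (red, above 0) or lower in both (blue, below 0); black marks give the same shares with the GC trend removed and dashed lines the shares of all tested genes. Chromosome 21 stands out above, and chromosomes 13 and 14 below, with and without the GC trend. Chromosome 12 lies near chromosomes 18 and X on the lower side, and near chromosome 22 with the GC trend removed.

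A shared direction was not a shared size. Of the 5989 members, 2642 (44.1%) were called different between PC9-AMG and PC9-BrM4 by limma, a contrast that the rule does not use, beside 56.1% of all tested genes and 64.8% of the 8206 tested genes that were not separated. A gene whose sublines differ widely is less likely to have both on 1 side of PC9, so the lower share among members follows in part from how they were chosen. Among the higher members 829 were higher in PC9-AMG than in PC9-BrM4 and 585 lower, and among the lower members 516 were higher in PC9-AMG and 712 lower, so that in both directions PC9-AMG lay the farther from PC9 more often. Counted without a test, 1660 of the 2985 higher members (55.6%) and 1701 of the 3004 lower members (56.6%) had the larger change in PC9-AMG. Of the 133 members changed at least 2-fold in each subline, 62 were called different between the sublines. Among the 15 largest rises NUPR1, IGFN1, LOC102723854, L1CAM, CLIC3, ADAMTSL4, NOG and EPPK1 were not called different between the sublines. Among the 15 largest falls ALDH3A1, LPAR1, TRIQK and PAN2 were not.

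Membership depended on level as well. From the fifth of tested genes with the lowest mean TPM to that with the highest, the share that was higher in both sublines went from 12.2% to 27.2% and the share that was lower from 23.4% to 19.8%. Of the members, 164 higher and 105 lower ones reached the minimum of 1 TPM in 2 libraries only through their high side. These had to differ. The named genes among them include OLFML3, EDNRB, SLCO2A1, XAGE2 and BMP7, which were higher. They also include NLGN4X, PELI2, NPR3, BMPR1B, IL1B and TP63, which were lower. In bulk libraries such as these, a change in the share of cells that express a gene and a change in the amount per cell cannot be told apart.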

How the data were processed

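The 6 libraries (3 lines, 2 each) were prepared from TRIzol-extracted RNA with a stranded TruSeq mRNA kit, per the labels' protocols. The tools listed in the submitters' processing notes are StringTie 1.3.4d, HISAT2 2.1.0 and bcl2fastq, with the build hg38 and no role for each. The authors deposited, per library, TPM (scaled to a fixed total), FPKM and coverage (a signal per base) for each gene. TPM is relative, so a rise of abundant genes lowers the rest. No annotation release is named in these sources. The whole-series table, with 6 columns of per-sample values, was left out, since none of its columns carries the PC9-AMG name.

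TPM values of a gene ID on several lines were summed. Genes with at least 1 TPM in at least 2 libraries were tested on log2(TPM + 1) with limma 3.58.1 in R 4.3.3, with 1 mean per line over all 6 libraries, a mean-variance trend and Benjamini-Hochberg adjustment over 14195 genes at 0.05. The fit has 3 residual degrees of freedom. Fold changes on that scale understate those of low genes. Aligned bases per library are estimated from the ratio of deposited coverage to deposited FPKM, and no counting interval is given because read counts are unknown. In data simulated for the mean contrast, 67, 67 and 66 of 14195 genes were shifted by 0.5, 1 and 2 log2 units. Of these limma recovered 52.2%, 95.5% and 98.5%, and 3.53% of its calls were false. In the real data 50.2% of genes were called, which makes the adjusted threshold less strict. The simulated shares therefore do not carry over to the real data.

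The members, the 47 gene lists, the naming rule and the alternatives were chosen with earlier results of these data known. Genes are named by rule: the 15 largest rises and falls by the smaller log2 difference among separated genes called in the mean and in each subline with at least 10 TPM in every library of the higher side, up to 3 leading members per list and direction, 8 fixed genes (EGFR, MET, AXL, CDH1, VIM, L1CAM, CEACAM5, CEACAM6) and genes at the edge of the rule. Genes named for their promoter and those changed at least 4-fold were added afterwards. Alternatives were the pseudocount (0.1, 5), the minimum (none, 5 TPM), FPKM, median-ratio and quantile scaling, no trend, the sublines as 1 group, a replicate block, each library left out and, added later, removal of the GC trend.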

Additional observations from a re-analysis of the deposited data

Results flagged for a closer look

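Many genes that moved the same way in both sublines changed by different amounts. Of the members, 2642 were called different between PC9-AMG and PC9-BrM4 by limma (Benjamini-Hochberg adjusted p under 0.05, 2 libraries per line), as were 74 of the genes named here, members and others. The values below are log2 differences of PC9-AMG minus PC9-BrM4, and both contrasts with PC9 share its libraries.

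Of the genes lower in both sublines, those with a positive difference had the deeper fall in PC9-BrM4. The widest was CEACAM6 at 6.69, followed by AOC1 (2.16), CEACAM5 (2.14), CES1 (2.04), DIO2 (1.60), TEAD2 (1.33), AKR1B10 (1.31), ACKR3 (1.25), AKR1B15 (1.11) and ID1 (1.00). Smaller differences of that sign were those of HOXC6 (0.75), IL1B (0.68), PVRL3 (0.65), PELI2 (0.63), IFI16 (0.61), GCNT1 (0.56), NPR3 (0.52), NRG1 (0.48), HOXC8 (0.34), AURKB (0.29), ERAP2 (0.19) and TOP2A (0.15). The fall was deeper in PC9-AMG for TNFAIP2 (-1.53), C3 (-1.38), VIM (-1.04), EFNB1 (-0.61), LFNG (-0.60), SNAI2 (-0.56), MIR205 (-0.54), HOXB7 (-0.46), GINS1 (-0.42), WNT5A (-0.32), AKR1C1 (-0.29), SOX4 (-0.25), PRIM1 (-0.24), AKR1C2 (-0.21), TGFBI (-0.20) and RPL37 (-0.19).

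Of the genes higher in both, the rise was larger in PC9-AMG for XAGE2 (3.18), CTGF (2.05), MAGEC2 (1.65), NUAK2 (1.47), SLC2A3 (0.85), S100A9 (0.82), EREG (0.82), CLDN3 (0.68), ICAM1 (0.50), MX1 (0.50), NOTCH1 (0.49), FOSL1 (0.47), IFI6 (0.46), MYH15 (0.41), SLC3A2 (0.40), MARCH4 (0.39), CARS (0.33), SLC7A1 (0.32), CDC20 (0.32), MRPL38 (0.31), FASN (0.30) and SPARC (0.25). It was larger in PC9-BrM4 for CPVL (-1.87), OLFML3 (-1.17), IL32 (-1.10), EDNRB (-0.83), GJA5 (-0.77), FSCN1 (-0.60), FAM133A (-0.57), TNFAIP3 (-0.42), BMP7 (-0.38), HLA-B (-0.38), SLCO2A1 (-0.29) and CTH (-0.28). MET (0.59) and AXL (0.72), which are not members, were higher in PC9-AMG than in PC9-BrM4.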

How the results depend on the processing

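Direction held for all 122 named genes called in the mean contrast under every alternative that gave them a value. AXL, which was not called, turned from 0.10 to -0.012 with the GC trend removed, an alternative chosen after seeing the data. With the 4 subline libraries as 1 group, 484 genes were called higher and 370 lower in the mean contrast, in place of 3573 and 3548, and 44 of the 122 named genes lost their call. Without a minimum level 1045 genes were called higher and 1031 lower in each subline, in place of 1636 and 1552, and 6 named genes lost their call; the cause was not tested. With each library left out in turn, 3118 to 3614 genes were higher and 3185 to 3662 lower in both sublines by separation. Each omission takes a condition out of the rule, so these counts could hardly fall below 2985 and 3004. Under the same omissions 2477 to 3690 were called higher and 2215 to 3471 lower in the mean contrast, 1096 to 1687 higher and 881 to 1361 lower in each subline, and 2146 to 2916 members differed between the sublines. The lowest counts of lower genes came without a PC9 replicate, where 1 PC9 library is assumed to vary like the other lines.

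The replicate numbers did not pair the libraries, since same-numbered deviations correlated at -0.07, -0.03 and -0.06 across genes. With a replicate block limma called 3379 genes higher and 3329 lower in the mean contrast, 1512 and 1387 in each subline, and 2458 members different between the sublines. With a replicate block AKR1C4 was called (adjusted p = 0.030), and no named gene lost its call.

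With 2 libraries per line and an unknown read count, shared changes near the replicate difference cannot be told from it, and the separation rule admits many such genes. The simulated recovery of 52.2% at 0.5 log2 units came from data with few changed genes and does not carry over to these libraries.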

Other observations

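Other genes moved with the members above and belong to no comparison made there. In the list of S100 proteins and cornified envelope genes 9 of 29 tested were higher (31.0%) and 6 lower (20.7%) in both sublines, against 21.0% and 21.2% of all tested genes, or 6 and 6 with the GC trend removed. S100A9, a calcium-binding protein of inflamed epithelium, was at 3.62 and 2.21 TPM in PC9 against 11.3 and 9.12 in PC9-BrM4 and 18.4 and 18.9 TPM in PC9-AMG. The basal keratins moved apart: KRT14 was higher, from 1.21 and 1.92 TPM to between 5.13 and 6.94, and KRT15 lower, from 29.6 and 32.5 TPM to between 16.8 and 19.4. TP63, the transcription factor of basal cells, fell from 2.92 and 3.02 TPM to below 1 TPM in all 4 subline libraries. FASN, fatty acid synthase, rose from 294 and 297 TPM to 397 and 497 in PC9-BrM4 and 565 and 529 TPM in PC9-AMG.

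In the list of brain metastasis genes from the literature, chosen with results of these data known, 27 genes were tested. Of these 5 were higher (18.5%) and 9 lower (33.3%) in both sublines, against 21.0% and 21.2% of all tested genes. The counts with the GC trend removed were 3 and 9. Besides L1CAM, the higher ones include MB21D1, the DNA sensor cGAS, which rose from 33.9 and 36.0 TPM to between 45.8 and 61.1. FSCN1, the actin bundler fascin, rose from 249 and 251 TPM to 438 and 516 in PC9-BrM4 and 313 and 315 TPM in PC9-AMG. ALDH3A1, ALDH1A1 and ACKR3, described above, were among the lower ones.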
